A study of Rattus norvegicus with 9 samples.

Results

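The genes described here are the 2 corticosteroid receptors, Nr3c1 and Nr3c2, the corticosteroid-activating enzyme Hsd11b1, and 7 genes known to be induced by glucocorticoids, Fkbp5, Tsc22d3, Sgk1, Klf9, Pdk4, Errfi1 and Ddit4. They were measured in the prefrontal cortex of 9 male rats of the inbred Lewis strain, with 1 expression array per rat. A probe set, the group of array probes that measures a transcript, was taken for a gene when that gene was its only symbol in the platform annotation. This gave 13 probe sets for the 10 genes, of 15866 probe sets and 10411 named genes on the array without its controls. The rats received no treatment, carried no engineered allele and form 1 group. They were housed singly, went through the behavioural tests and were killed 12 days after the last one. Each rat has 4 behavioural label values without a unit, and the comparisons are relations across individuals of 1 strain. Startle ran from 67.7 to 501, locomotion from 536 to 1102, plus maze from 0 to 18.7 and sugar feeding from 0.8 to 4.7.

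Corticosterone, the main glucocorticoid of rats, enters the brain and binds receptors that work as transcription factors. The mineralocorticoid receptor (Nr3c2) binds it with high affinity, and the glucocorticoid receptor (Nr3c1) is engaged more fully when the hormone rises at the daily peak or under stress. Hsd11b1 regenerates active corticosterone from its inert 11-keto form inside cells. Fkbp5 is a co-chaperone that lowers the receptor's hormone affinity, so its induction closes a feedback loop. Tsc22d3 encodes the leucine zipper protein GILZ, Sgk1 a kinase of ion transport, Klf9 a Krüppel-like factor, Pdk4 an inhibitory kinase of pyruvate dehydrogenase, Errfi1 a feedback inhibitor of the EGF receptor and Ddit4 an inhibitor of mTORC1.

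Both receptors bind the same palindromic DNA element, so the start regions of the genes were searched for it as a description of their sequence. RefSeq windows of the GRCr8 build, 250 bases before to 50 bases after a start, were given for 8 of the 10 genes, in 13 windows. Those of Nr3c2 and Hsd11b1 were not used here. The element holds a short site, AGAACA, then any 3 bases and TGTTCT, its reverse complement. Searched on both strands, it was in 0 of the 13 windows and in 0.0149% of all 33469 windows. The short site alone, which every full element contains, was also in 0 of the 13, and in 20.7% of all windows. A relaxed form, GNACA, any 3 bases and TGT, was in 1 of the 13 windows and in 3.16% of all. The window with this match is shown because it is the only one among these genes. It belongs to 1 of the 3 annotated starts of Tsc22d3, at chrX:109065381-109065680 on the minus strand, and the match in capitals begins 185 bases before the start. Which start the Tsc22d3 probe set measures was not determined, and no binding was measured.
Tsc22d3: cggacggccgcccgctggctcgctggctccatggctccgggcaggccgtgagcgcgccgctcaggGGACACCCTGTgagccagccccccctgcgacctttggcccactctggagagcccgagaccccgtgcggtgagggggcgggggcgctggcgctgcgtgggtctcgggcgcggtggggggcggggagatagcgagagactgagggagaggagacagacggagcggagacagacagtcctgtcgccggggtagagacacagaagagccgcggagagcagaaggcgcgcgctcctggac

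Values are log2 expression as deposited. Probe sets in the lowest 40% by mean were left out of the tests, which kept 9520 probe sets, 10 of the 13 member probe sets and 9 of the 10 genes. Median log2 over the tested probe sets lay between 6.79 and 6.95 on the 9 arrays, and precision is limited by how many arrays there are. Rats 8 and 9 had arrays unlike the other 7, so the named relations and the main counts are given over 9 rats and again over 7. Slopes of single pathway and marker genes are over 9 rats. Both arrays lay above the range of the other 7 for 9.33% of tested probe sets and below it for 17.6%. Of the 10 member probe sets this held for 2, Klf9 above and Ddit4 below. All 8 neuronal markers on the array passed the filter, as did all 7 markers of oligodendrocytes, 8 of 9 of astrocytes and 7 of 10 of endothelium and pericytes.

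Nr3c2 had the widest spread of the genes. Its log2 level was lowest at 3.81 in rat 3, with a median of 5.81 and a highest value of 6.16 in rat 2. Rat 3 and, at 5.07, rat 9 lay below the other 7 rats, which were all between 5.78 and 6.16. The mean was 5.56 ± 0.72 (SD, n = 9), and without rat 3 the SD was 0.31. The SD was larger than that of 98.2% of tested probe sets.

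Nr3c1 was lowest in rat 9 at 6.19, with a median of 7.04 and a highest value of 7.46 in rat 2. Rats 1, 3, 5 and 7 shared the identical deposited value of 7.04, so these 4 have no order in it. The mean was 7.00 ± 0.34 (SD, n = 9), and without rat 9 the SD was 0.17. A second Nr3c1 probe set averaged 3.34 ± 0.14 (SD, n = 9), near the lowest mean kept, 3.22.

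Hsd11b1 was highest in rat 3 at 9.32, with a median of 8.65 and a lowest value of 8.44 in rat 7. Rat 3, the rat with the highest startle and the lowest Nr3c2, was set off from the next rat, rat 6 at 8.84. The mean was 8.70 ± 0.26 (SD, n = 9), and without rat 3 the SD was 0.12.

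Among the induced genes, Klf9 and Ddit4 varied most. Klf9 ran from 9.46 in rat 7 through a median of 9.99 to 10.73 in rat 9, and rats 8 and 9 were the 2 highest. Its mean was 10.63 in rats 8 and 9, against 9.87 ± 0.28 (SD, n = 7) in the other 7 rats. Ddit4 ran from 6.28 in rat 8 through a median of 7.57 to 8.13 in rat 4. Rats 4 and 5 lay at 8.13 and 8.11 and rat 8 far below all others. Its mean was 6.82 in rats 8 and 9, against 7.72 ± 0.29 (SD, n = 7) in the other 7 rats.

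Tsc22d3 and Sgk1 varied about as much as a typical gene. Tsc22d3 ran from 7.89 in rat 3 through a median of 8.20 to 8.47 in rat 5, a 1.5-fold span. Sgk1 ran from 7.47 in rat 6 through a median of 7.77 to 8.15 in rat 4, a 1.60-fold span. Rat 4 stood highest in both Sgk1 and Ddit4, while rats 3 and 6 were lowest in Sgk1. Their SDs were larger than those of 50.9% and 55.5% of tested probe sets.

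Fkbp5 and Errfi1 were nearly flat. Fkbp5 ran from 5.14 in rat 2 through a median of 5.19 to 5.34 in rat 8, a 1.15-fold span, and rats 3, 4 and 6 shared the identical value of 5.19. Errfi1 ran from 6.94 in rat 5 through a median of 7.09 to 7.17 in rat 3, a 1.17-fold span, and rats 2, 4, 7 and 9 shared the identical value of 7.09. Their SDs exceeded those of 6.86% and 8.43% of tested probe sets. The array values of Fkbp5, a commonly used readout of receptor activity, thus differed little between these animals. Its probe set was among the lowest 70% by mean, and whether a low signal narrowed its span was not tested. Receptor activity itself was not measured.

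A single rat was set apart from the others in 4 of the 10 tested member probe sets, those of Nr3c2, Nr3c1, Hsd11b1 and Ddit4, by Dixon's criterion for a gap. The same held for 20.4% of all tested probe sets.

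Pdk4 did not pass the filter, with values between 2.41 and 2.52. Nor did 2 further Klf9 probe sets, at 1.27 to 1.32 and 1.70 to 1.76. In all 3 the order of the rats followed the median of the probe sets left out, with Spearman rho of 0.971 for Pdk4 and 0.983 and 0.879 for the Klf9 probe sets, points that share arrays and scaling. No relation of Pdk4 is described.

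**Figure D1:**
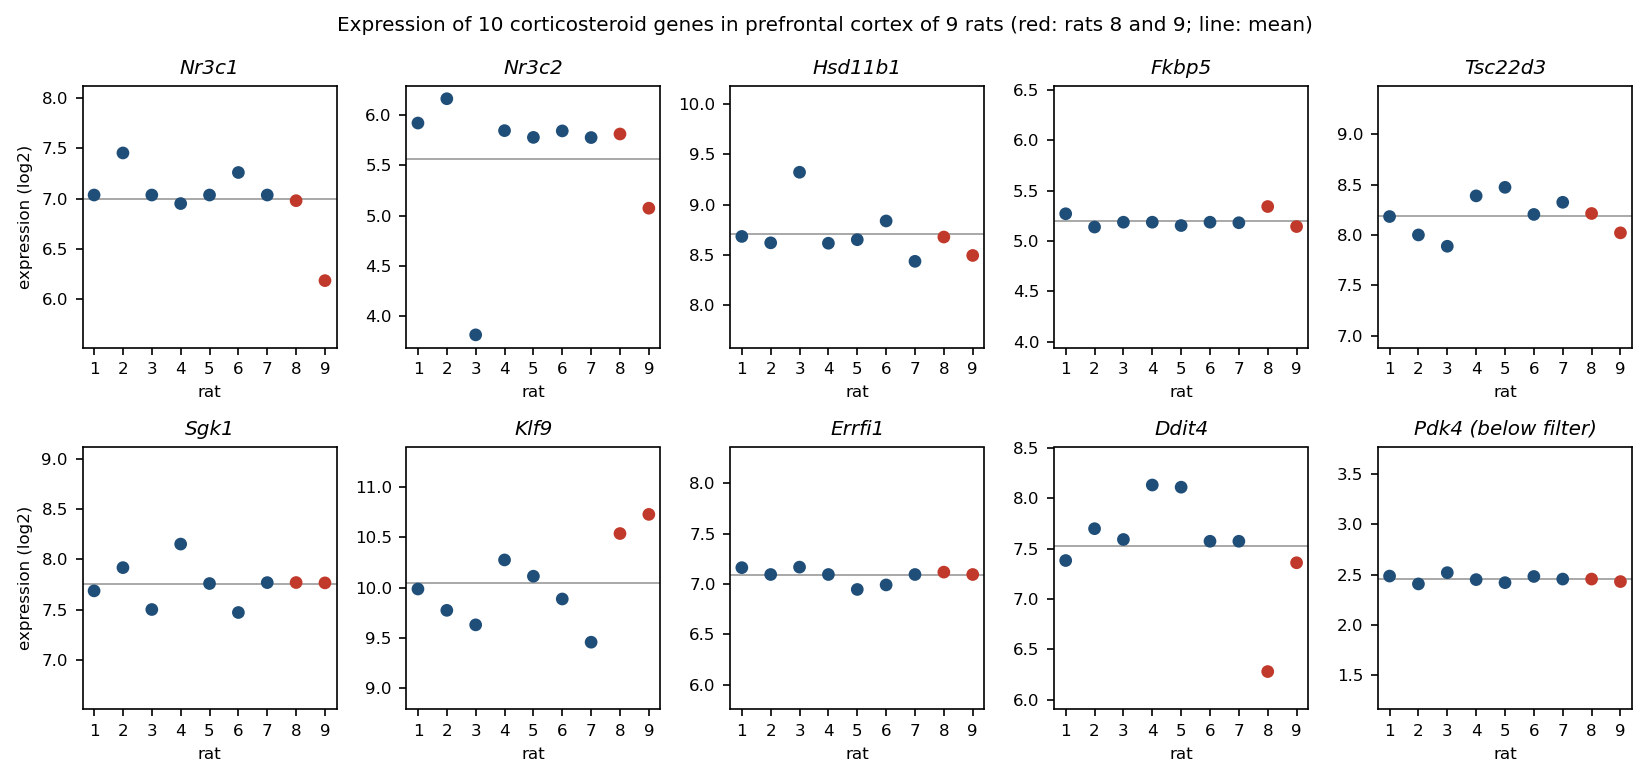
Log2 expression (vertical axis, spanning the same number of log2 units in every panel) of each gene's probe set with the highest mean, by rat (horizontal axis), with rats 8 and 9 in red and the mean of 9 rats as a line. Rat 3 is set apart at 3.81 in Nr3c2 and 9.32 in Hsd11b1, rat 9 at 6.19 in Nr3c1 and rat 8 at 6.28 in Ddit4, while Fkbp5, Errfi1 and Pdk4 are nearly level.

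The first question was whether these genes go with behaviour across the rats. For each behaviour limma fitted a slope, in log2 units per SD of the behaviour, to all 9520 probe sets, with Benjamini-Hochberg adjustment over them. Of the 10 member probe sets 0 passed an adjusted p of 0.05 for any behaviour, and neither did any other tested probe set, 0% in each comparison. At an unadjusted limma p under 0.05 there was 1 of 10 for startle, where 13.2% of all tested probe sets were past this threshold. Locomotion had 0 of 10 (1.96% of all), plus maze 1 of 10 (2.99%) and sugar feeding 1 of 10 (1.4%). Over the 7 rats startle had 3 of 10 (14.6% of all), locomotion 0 (4.37%), plus maze 1 (3.58%) and sugar feeding 1 (2.75%). The 3 for startle were Hsd11b1, Tsc22d3 with a slope of -0.17 (limma adjusted p = 0.279) and the second Nr3c1 probe set with 0.10. This second probe set averaged 3.34, near the lowest mean kept. Its r with startle over the 7 rats was 0.748, where that of the Nr3c1 probe set with the highest mean was 0.058. The members' median slope against startle was 0.0083, where that of all tested probe sets was 0.021. It was 0.024 against locomotion (all, -0.010), -0.011 against plus maze (all, 0.011) and 0.027 against sugar feeding (all, -0.0030). These are 40 relations in all, and the member with the lowest p for each behaviour is described.

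Hsd11b1, the corticosterone-regenerating enzyme, had the lowest p for startle. Its slope was 0.18 ± 0.067 (SE, n = 9; limma adjusted p = 0.359). Pearson r was 0.680 and Spearman rho 0.633, with exact permutation p of 0.0329 and 0.0760. Rat 3 had both the highest startle, 501, and the highest Hsd11b1. With rats 1 and 3 left out, whose startle lay farthest from its median, r was 0.401 (exact permutation p = 0.374), and without rat 3 alone the slope was 0.059 (limma adjusted p = 0.681). Without rats 8 and 9 r was 0.775 and rho 0.857, with exact permutation p of 0.0127 and 0.0238. Single markers of several cell types were past an unadjusted limma p of 0.05 for startle, a threshold that 13.2% of all tested probe sets passed. With positive slopes there were 1 of 7 of endothelium and pericytes (Slco1a4, 0.25), 1 of 8 of microglia (P2ry12, 0.32), 1 of 8 of astrocytes (Slc1a3, 0.18) and 1 of 3 of red blood cells (Slc4a1, 0.081). With negative slopes there were 2 of 8 of neurons (Gad2, -0.65 and Slc17a7, -0.27) and 1 of 8 of astrocytes (Gfap, -0.22). The part of these cells in the relation was not tested.

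Nr3c1, the glucocorticoid receptor, had the lowest p for plus maze, with a slope of 0.23 ± 0.087 (SE, n = 9; limma adjusted p = 0.999). Its r was 0.680 and its rho 0.601, with exact permutation p of 0.0336 and 0.0910. Rats 2 and 6, which share the highest plus maze value of 18.7, were the 2 highest in Nr3c1, and without them r was 0.437 (exact permutation p = 0.314). Over the 7 rats r was 0.879 and rho 0.596, with exact permutation p of 0.0381 and 0.152. Rats 1, 3, 5 and 7, all among these 7, share the identical Nr3c1 value of 7.04, so only rats 2, 4 and 6 differ from it. The second Nr3c1 probe set had a slope of -0.013. Rats 2 and 6 also had the highest mean level of the 8 tested markers of meninges and fibroblasts, 5.38 and 5.27, where the other rats ran from 4.05 to 5.17. Of these markers 3 of 8 were past an unadjusted p of 0.05 for plus maze, where 2.99% of all tested probe sets were, all with positive slopes: Fmod at 0.38, Col3a1 at 0.86 and Col1a2 at 0.27. The markers Lum and Slc6a13 did not pass the filter. The astrocyte marker Aqp4, 1 of 8, was also past the unadjusted threshold, at 0.20, and the part of these cells in the relation was not tested.

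Sgk1, the kinase of ion transport, had the lowest p for sugar feeding, with a slope of 0.15 ± 0.054 (SE, n = 9; limma adjusted p = 1.00). Its r was 0.717 and its rho 0.50, with exact permutation p of 0.0345 and 0.178. Rat 4 had the highest value of both, 4.7 for sugar feeding. With rats 4 and 8 left out, the 2 most distant from the median in that behaviour, r was 0.307 (exact permutation p = 0.495), and without rat 4 alone the slope was 0.076 (limma adjusted p = 0.823). Without rats 8 and 9 r was 0.757 and rho 0.429, with exact permutation p of 0.0498 and 0.354. Of the oligodendrocyte markers 2 of 7 were past an unadjusted p of 0.05 for sugar feeding, where 1.4% of all tested probe sets were, Mag at 0.14 and Mobp at 0.20. The mean level of the 7 ran from 8.71 in rat 6 to 9.39 in rat 8, and their part was not tested.

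Nr3c2, the mineralocorticoid receptor, had the lowest p for locomotion without passing even the unadjusted threshold. Its slope was 0.36 ± 0.21 (SE, n = 9; limma adjusted p = 1.00), r was 0.506 and rho 0.517, with exact permutation p of 0.173 and 0.162. Rat 3 had the lowest locomotion, 536, and the lowest Nr3c2. With rats 1 and 3 left out, the 2 most distant from the median in that behaviour, r was -0.0540 (exact permutation p = 0.904), and over the 7 rats r was 0.540 and rho 0.786, with exact permutation p of 0.171 and 0.0480.

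**Figure D2:**
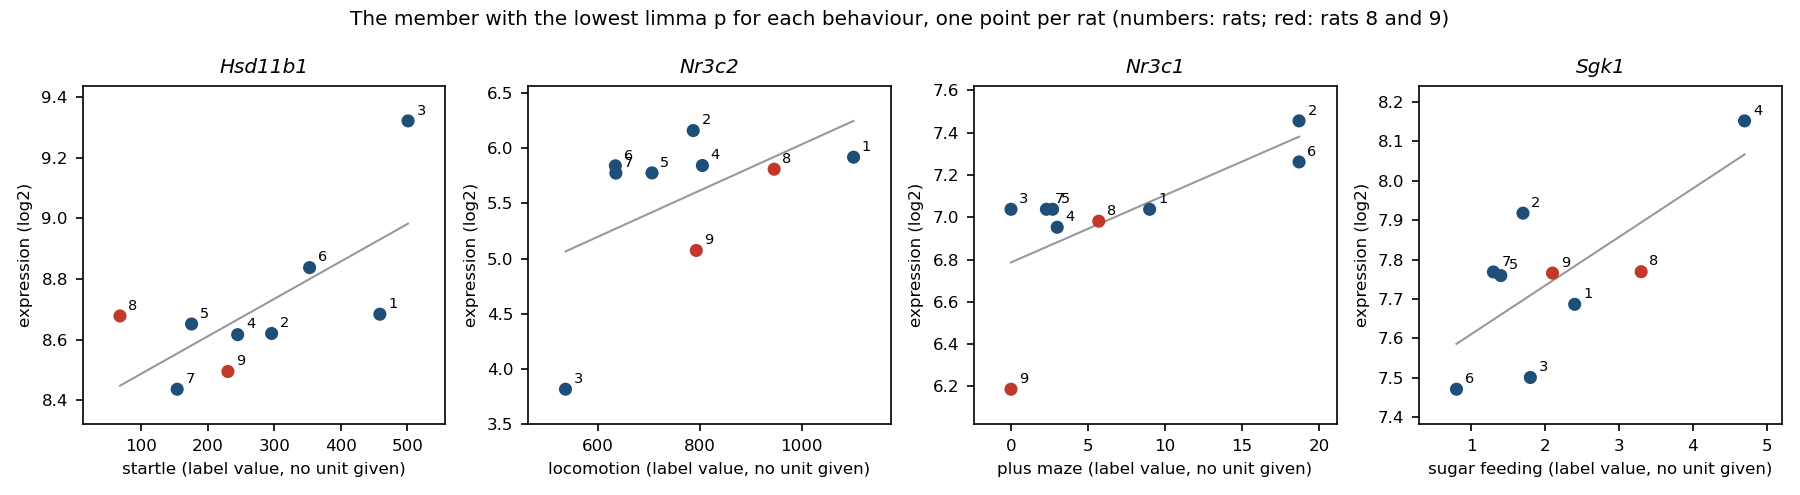
Log2 expression (vertical axes) against the behavioural label value (horizontal axes, no unit given) for the member with the lowest limma p per behaviour, with 1 numbered point per rat, rats 8 and 9 in red and a least-squares line. Rat 3 lies at the end of the startle and locomotion panels, rats 2 and 6 share the right end of the plus maze panel and rat 4 that of sugar feeding.

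No relation other than those of Hsd11b1, Nr3c1 and Sgk1 above was past an unadjusted limma p of 0.05 over the 9 rats. For startle 5 of the 10 slopes were positive and 5 negative, from -0.33 for Nr3c2 to 0.18 for Hsd11b1. For locomotion 6 were positive and 4 negative, from -0.23 for Ddit4 to 0.36 for Nr3c2. For plus maze 2 were positive and 8 negative, from -0.10 for Klf9 to 0.40 for Nr3c2, and for sugar feeding 6 and 4, from -0.076 for Nr3c1 to 0.21 for Klf9. Fkbp5 slopes stayed between -0.011 for startle and 0.041 for locomotion.

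Further genes of the pathway were tested in the same fits. Of 35 other glucocorticoid-induced genes on the array 24 were tested. At an unadjusted limma p under 0.05 there were 2 of 24 for startle, 8.33% of them against 13.2% of all tested probe sets. Both were negative: Per1, a clock gene, at -0.41 ± 0.175 and Gpd1, a glycerol phosphate dehydrogenase, at -0.19 ± 0.078 (SE, n = 9). There was 1 of 24 for locomotion (1.96% of all), the MAP kinase phosphatase Dusp1 at -0.25 ± 0.087, 0 for plus maze (2.99%) and 1 for sugar feeding (1.4%), Gpd1 at 0.19 ± 0.079 (SE, n = 9). The lowest adjusted p that limma gave these genes was 0.362. Of 15 tested receptor chaperones and coregulators 1 was past the unadjusted threshold, St13, an Hsp70-binding co-chaperone, for plus maze at 0.15 ± 0.066 (SE, n = 9), where 2.99% of all were. Of 10 genes of steroid handling on the array 8 did not pass the filter, among them Hsd11b2, which inactivates corticosterone, and H6pd, which supplies NADPH to Hsd11b1. Of the 2 tested, the efflux transporter Abcb1a, also a vessel marker, had -0.25 ± 0.094 for locomotion (SE, n = 9; limma adjusted p = 1.00), with Tspo past the threshold for no behaviour. Of 12 genes that glucocorticoids repress, 10 did not pass it, and the others, Vcam1 and Ptgs2, had 0 relations at an unadjusted limma p under 0.05.

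The second question was whether receptors and targets vary together. With each of the 9 tested genes in turn as the explanatory variable, limma was fitted to all other tested probe sets. Of 72 ordered relations among the 9 genes 0 passed an adjusted p of 0.05 and the lowest was 0.115. Over all tested probe sets and these 9 fits the share was 0.717%. At an unadjusted limma p under 0.05 there were 5 of 72, against 10.9% over all. The 72 relations are 36 pairs, of which 22 had a positive and 14 a negative r, with a median of 0.0715. Without rats 8 and 9 the sign was kept in 28 of the 36. Among the 15 pairs of the 6 induced genes 9 were positive and 6 negative, from -0.787 to 0.397, with a median r of 0.0895 over 9 rats and 0.120 over 7.

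In each of the 4 pairs farthest from 0, r came closer to 0 or changed sign when a single rat was left out. Fkbp5 and Ddit4 had an r of -0.787 and a rho of -0.374, with exact permutation p of 0.0264 and 0.321, and limma adjusted p = 0.453 on the level of Fkbp5 and 0.316 on that of Ddit4. Rat 8 was highest in Fkbp5 and lowest in Ddit4, and without it r was -0.300. With rats 1 and 8 left out, whose Fkbp5 lay farthest from its median, r was 0.115 (exact permutation p = 0.785), and over the 7 rats it was -0.547 (exact permutation p = 0.257).

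Nr3c2 and Hsd11b1 had an r of -0.743 and a rho of 0.0333, with exact permutation p of 0.0932 and 0.948, and limma adjusted p = 0.299 on the level of Nr3c2 and 0.115 on that of Hsd11b1. Over the 7 rats r was -0.889 (exact permutation p = 0.0873), with adjusted p of 0.0548 and 0.0517 in limma. This rested on rat 3, which was lowest in Nr3c2 and highest in Hsd11b1, and without it r was 0.427. With rats 3 and 9 left out, whose Nr3c2 lay farthest from its median, r was 0.0734 (exact permutation p = 0.779).

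Nr3c1 and Klf9 had an r of -0.679 and a rho of -0.731, with exact permutation p of 0.0326 and 0.0282, and limma adjusted p = 0.291 on the level of Nr3c1 and 0.258 on that of Klf9. Rat 9 was lowest in Nr3c1 and highest in Klf9, and without it r was -0.363. With rats 2 and 9 left out, whose Nr3c1 lay farthest from its median, r was -0.351 (exact permutation p = 0.467), and over the 7 rats it was -0.246 (exact permutation p = 0.60). Nr3c2 and Tsc22d3 had an r of 0.592 and a rho of 0.0833, with exact permutation p of 0.0873 and 0.843, and limma adjusted p = 0.551 on the level of Nr3c2 and 0.942 on that of Tsc22d3. Its r was 0.167 without rat 3, 0.803 without rat 2, -0.827 without rats 3 and 9 (exact permutation p = 0.0131) and 0.559 over the 7 rats (exact permutation p = 0.202).

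The 2 receptors themselves had r = 0.35 over 9 rats and 0.32 over 7. Leaving out rat 3, chosen after its values were seen, gave an r of 0.961 and a rho of 0.537 over 8 rats, with exact permutation p of 0.00714 and 0.182, and limma adjusted p of 0.128 on the level of Nr3c1 and 0.0808 on that of Nr3c2. Rat 9 was then the lowest in both receptors and rat 2 the highest. Without rats 3 and 9 r was 0.798 (exact permutation p = 0.0571, n = 7).

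**Figure D3:**
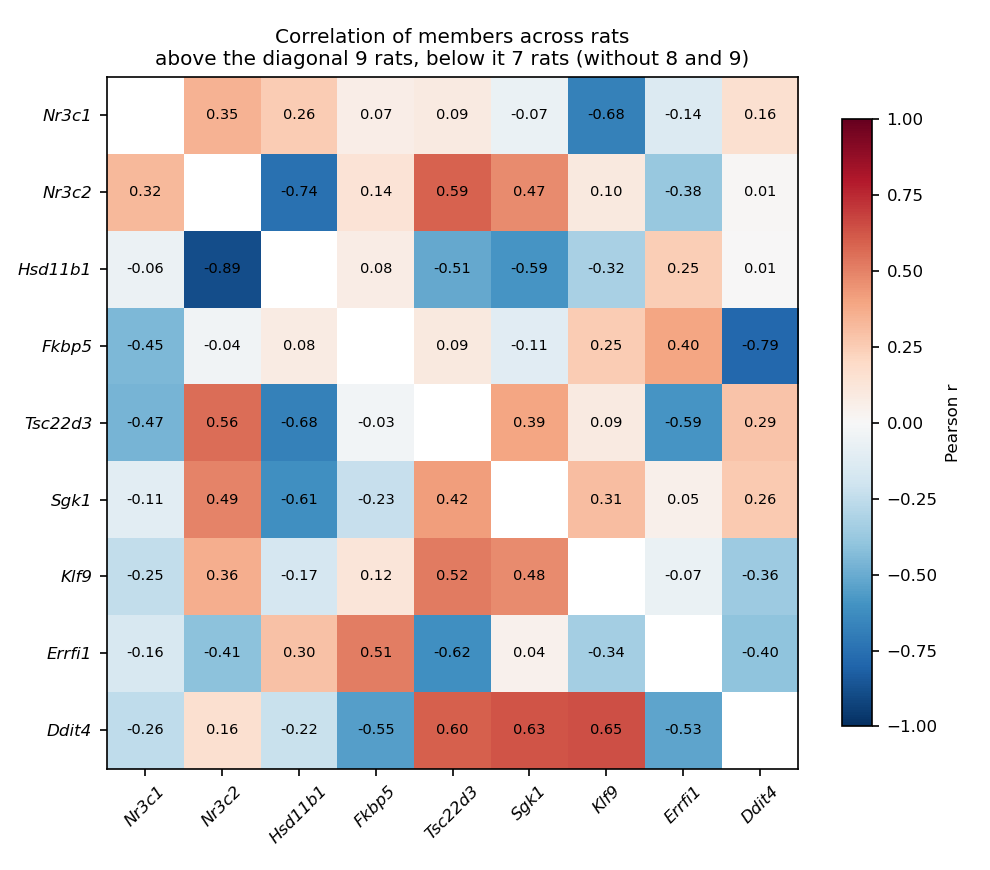
Pearson r between the 9 tested genes across rats, with the 9 rats above the diagonal and the 7 rats without rats 8 and 9 below it (colour scale from -1 to 1). Nr3c2 with Hsd11b1 is -0.74 above and -0.89 below the diagonal, and Fkbp5 with Ddit4 is -0.79 above and -0.55 below it.

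Hsd11b1 varied with genes outside this set. On its level 192 of 9519 probe sets, 2.02%, had a limma adjusted p under 0.05, and 187 (1.96%) did over the 7 rats. This count was 0 when any 1 of rats 3, 4, 5, 8 or 9 was left out. Without rat 3 the probe sets at an unadjusted limma p under 0.05 numbered 609, 6.4%, where over 9 rats they were 17.2% and over the 7 rats 22.2%. Markers of vessels were among those called. Of the 7 tested genes of endothelium and pericytes 3 passed, all positive: Pdgfrb, a pericyte receptor, at 0.24 log2 units per SD of Hsd11b1, Cldn5, a tight junction protein, at 0.18 and Vwf, von Willebrand factor, at 0.16. All 7 were past an unadjusted limma p of 0.05, and all 7 were past it over the 7 rats, with 0 at the adjusted threshold. Their mean level ran from 6.01 in rat 9 to 6.64 in rat 3. The markers Pecam1, Ocln and Rgs5 did not pass the filter.

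Genes of other non-neuronal cells were also called on the level of Hsd11b1. Of 8 tested microglial markers 2 had a limma adjusted p under 0.05, Csf1r, the receptor of colony-stimulating factor, at 0.23 and Tyrobp, an immune adaptor, at 0.16. Of the 8 microglial markers 0 did over the 7 rats, and 6 of 8 were past an unadjusted limma p of 0.05 both over 9 rats and over 7. Of 8 astrocyte markers 1 did over 9 rats, the glutamate transporter Slc1a3 at 0.24, and 2 did over 7. Over 9 rats 3 of the 8 were past an unadjusted limma p of 0.05, where 17.2% of all tested probe sets were. The astrocyte markers did not all follow Hsd11b1 over 9 rats. Their r with it ran from -0.312 for Gfap, which was lowest in rat 3, through 0.0785 for Aqp4 to 0.908 for Slc1a3. Without rat 3 or without rat 8 no marker of vessels, microglia or astrocytes had a limma adjusted p under 0.05. Of the 24 other glucocorticoid-induced genes 0 did without rat 3 or without rat 8. Over 9 rats 1 of the 24 did, the metallothionein Mt2A at 0.36 ± 0.060. Its level was 8.74 in rat 3, where the other rats ran from 7.26 to 7.99. In bulk tissue more cells of a type and more RNA per cell cannot be told apart. Without rat 3 the correlation with Hsd11b1 was 0.670 for Cldn5, 0.768 for Vwf, 0.592 for Pdgfrb, 0.766 for Csf1r, 0.545 for Tyrobp, 0.657 for Slc1a3 and 0.709 for Mt2A, given as a description over 8 rats. These genes were picked because they were called with rat 3 included. Over all tested markers the correlation without rat 3 ran from 0.508 (Abcb1a) to 0.768 (Vwf) for vessels. For microglia it ran from 0.208 (P2ry12) to 0.929 (C1qa) and for astrocytes from 0.423 (Slc1a2) to 0.702 (Aqp4). For the 24 other glucocorticoid-induced genes it ran from -0.664 (Dusp1) to 0.802 (Ndrg2). Without rat 3, 6.4% of all tested probe sets had an unadjusted limma p under 0.05. Among the markers there were 1 of 7 of vessels, 3 of 8 of microglia and 1 of 8 of astrocytes, all positive. Of the 24 other glucocorticoid-induced genes there were 3 positive and 1 negative. Over 9 rats there were 5 positive and 1 negative of these 24, where 17.2% of all tested probe sets were.

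**Figure D4:**
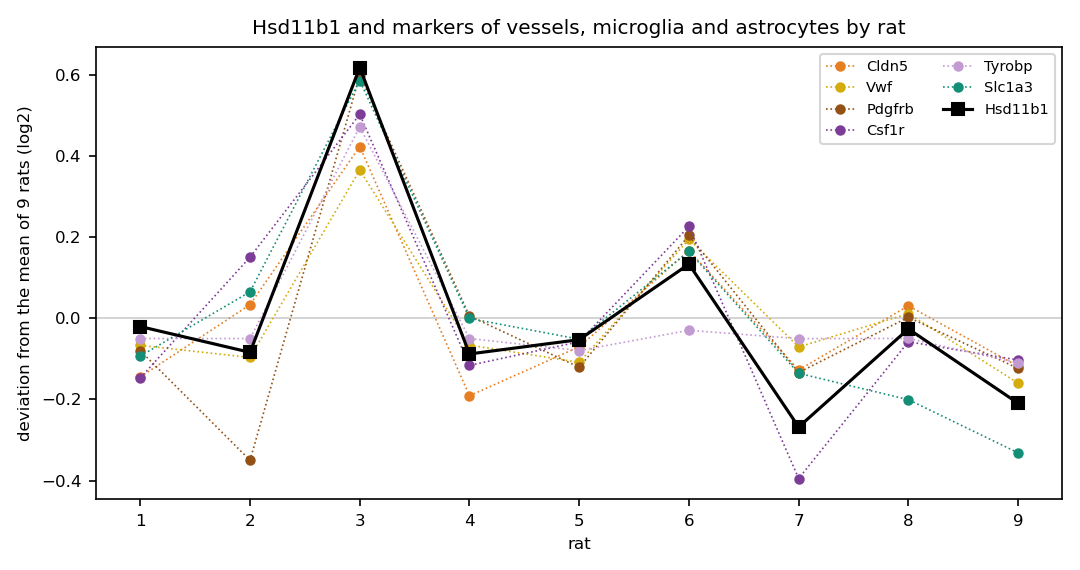
Deviation of log2 expression from each gene's mean over 9 rats (vertical axis) by rat (horizontal axis) for Hsd11b1 (black squares) and 6 marker genes of vessels, microglia and astrocytes (coloured points, dotted lines to guide the eye). All 7 genes are highest in rat 3. The 6 markers shown are ones called on the level of Hsd11b1 with rat 3 included, and the astrocyte marker Gfap, not shown, was lowest in rat 3.

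Ddit4 had 422 probe sets with a limma adjusted p under 0.05, 4.43%, and 23.6% at an unadjusted p under 0.05. The first count was 0 without rat 8 and 0 over the 7 rats, with 763 (8.02%) and 653 (6.86%) at an unadjusted p under 0.05. Sesn1, another stress-induced inhibitor of mTORC1, was among those called, at 0.36 ± 0.079 log2 units per SD of Ddit4 (limma adjusted p = 0.0440). Its r with Ddit4 was 0.840 over 9 rats and 0.741 over 7. It was the 1 of 24 other glucocorticoid-induced genes called. Of the 8 neuronal markers 1 was called on the level of Ddit4, Gad2, an enzyme of GABA synthesis, at -0.81 (limma adjusted p = 0.0354), with r = -0.852 over 9 rats and -0.322 over 7. The neuronal markers Gad1 at 0.17 and Map2 at 0.15 were past the unadjusted threshold with positive slopes. Neuronal markers and the 24 genes had 0 calls at the adjusted threshold in limma over the 7 rats. The part of neurons in these values was not tested.

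The other 7 genes had 0 probe sets at the adjusted threshold in limma over 9 rats. At an unadjusted p under 0.05 the shares were 15.9% for Klf9, 13.1% for Nr3c1, 10.6% for Nr3c2, 7.4% for Fkbp5, 5.12% for Tsc22d3, 3.19% for Errfi1 and 2.29% for Sgk1. Without rats 8 and 9 Nr3c2 had 333 probe sets at the adjusted threshold, 3.5%, with 20.8% at the unadjusted one, 80 without rat 9 alone and 30 without rat 8 alone. These fits all hold rat 3, the lowest in Nr3c2 at 3.81, and without rat 3 alone Nr3c2 had 0. The count for Nr3c1 was 319 without rat 8 alone and 0 over the 7 rats, and that for Fkbp5 was 21 without rat 1. At the unadjusted threshold over the 7 rats there were 714 probe sets for Klf9, 389 for Nr3c1, 460 for Fkbp5, 839 for Tsc22d3, 357 for Errfi1 and 357 for Sgk1.

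The genes whose patterns were most like each member over the 9 rats were ranked by Pearson r among 6761 genes. They were C18h18orf32 (0.977) and Pomp (0.973) for Nr3c1, Wbp4 (0.976) and Zdhhc17 (0.975) for Nr3c2, and Aass (0.984) and Bcam (0.975) for Hsd11b1. For the induced genes they were Adgre5 (0.981) and Tmem138 (0.959) for Fkbp5, Pfdn6 (0.957) and Tmem69 (0.886) for Tsc22d3, and Rnaseh2c (0.907) and Zkscan5 (0.897) for Sgk1. Klf9 had Zfp148 (0.924) and Srrm2 (0.921), Errfi1 had Apbb2 (0.878) and Plscr3 (0.828), and Ddit4 had Cyb5b (0.986) and Ubl4a (0.986). The highest of so many values is large by selection, and a limma adjusted p under 0.05 was reached only by the pairs of genes named for Ddit4 and Hsd11b1, at 0.0356 for Aass and 0.0496 for Bcam. Over the 7 rats the r of these genes lay between 0.769 for Srrm2 and 0.991 for Zdhhc17.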

How the data were processed

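Total RNA of 9 prefrontal cortices was hybridised to 1 Affymetrix rat array each. The values are log2 expression per probe set as deposited by the authors. The submitters' processing notes name GCRMA and R 2.6.2. GCRMA adjusts for nonspecific binding using base content, equalises arrays and combines the probes of a set. No settings are given in the sources used here. Identical values on 2 or more arrays occurred in 5 of the 10 tested member probe sets.

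Left out were 57 control probe sets, then the lowest 40% of the rest by mean. A gene's level is that of its probe set with the highest mean. Slopes were fitted with lmFit and eBayes of limma 3.58.1 in R 4.3.3, two-sided, with 7 residual degrees of freedom. The fits were first tried with known slopes added to arrays shuffled across rats. At an adjusted p under 0.05 slopes of 0.2 were recovered in 1.9% to 6.95% of cases, by behaviour. Slopes of 0.5 were recovered in 80.35% to 82.15%, with 5.8 to 60.5 other probe sets also called per run. Correlations had two-sided exact tests over 362880 pairings for 9 rats (40320 for 8, 5040 for 7) in Python 3.11.15 (scipy 1.17.1, numpy 2.4.6, pandas 2.3.3). Figures used matplotlib 3.10.9. The labels give 1 array per individual, so the spread also holds technical differences.

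The genes, lists and tests were chosen with earlier results of these data known. Relations named are, per behaviour, the lowest limma p and any other under 0.05. Pairs named are the 4 with r farthest from 0, since none passed the adjusted threshold. The alternatives changed the filter, normalization, moderation, array weights, covariates, scale of the behaviour and rats included.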

Additional observations from a re-analysis of the deposited data

Results flagged for a closer look

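In 4 of the 10 tested member probe sets 1 array was set apart from the other 8 by a gap wider, as a share of the whole range, than Dixon's critical value for 9 samples. Nr3c2 was low in rat 3, at 3.81, with a gap of 0.536 of the range. Hsd11b1 was high in the same rat, at 9.32, with a gap of 0.547. Nr3c1 was low in rat 9, at 6.19, with 0.604, and Ddit4 was low in rat 8, at 6.28, with 0.583. Chance flags about 1 in 20 groups of normal values, and 20.4% of all 9520 tested probe sets had such an array.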

How the results depend on the processing

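Of 305 values under an alternative 277 kept their direction and their side of the threshold, or stayed close. Many of these are counts that stayed at 0, and slopes counted as kept could still shrink. The slope of Nr3c2 against locomotion went from 0.36 to 0.037 without rat 3. That of Ddit4 on the level of Fkbp5 went from -0.43 to -0.14 without rat 8. At an adjusted p of 0.05 in limma the 4 behaviours had 0 probe sets under every alternative run, except 1 for startle with no filter, and the 72 ordered relations among the genes had 0 under all of them. Member probe sets at an unadjusted p under 0.05 for startle were 2 with a term for rats 8 and 9, 3 without these arrays and 0 to 2 when 1 rat was left out. For locomotion there was 1 with ranks of the behaviour and 0 to 1 without 1 rat. For plus maze there were 2 with array weights, 2 with ranks and 0 to 1 without 1 rat, and for sugar feeding 0 with ranks, 0 with the other 3 behaviours as covariates and 0 to 2 without 1 rat. The unadjusted call of Hsd11b1 for startle was lost in 3 of 18 alternatives, that of Nr3c1 for plus maze in 2 of 18 and that of Sgk1 for sugar feeding in 4 of 18. Without rat 3 the slope of Hsd11b1 on Nr3c2 turned to 0.12, and over the single rats left out it ran from -0.23 to 0.12. Of the other probe sets of a gene, those of Nr3c1 and Klf9 had means of 3.34, 1.29 and 1.73, near or below the filter. The 192 probe sets called on the level of Hsd11b1 became 0 with array weights, 843 with no filter and 1 with the lowest 70% left out, and the 422 on the level of Ddit4 became 6, 431 and 327. On the level of Nr3c2 there were 9, 12 and no value. The cause was not tested. With the lowest 70% left out Nr3c2 and Fkbp5 were not tested. No paired analysis was possible because the rats form 1 group. Precision is limited by the number of arrays.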

Other observations

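Steroid receptors are held in a hormone-binding state by heat shock chaperones. Of 15 tested chaperones and coregulators 4 were past an unadjusted limma p of 0.05 on the level of Nr3c2, all positive, where 10.6% of all tested probe sets were. They were Dnajb1 at 0.19 ± 0.053 log2 units per SD of Nr3c2, Hsp90ab1 at 0.12 ± 0.051, Stip1 at 0.081 ± 0.034 and the corepressor Ncor1 at 0.13 ± 0.052 (SE, n = 9). The lowest of their limma adjusted p over 9 rats was 0.231. Over the 7 rats 5 of 15 were past the unadjusted threshold, where 20.8% of all were, and 1 of 15 was past the adjusted one (3.5% of all). Without rat 3 there were 3 positive and 1 negative at the unadjusted threshold, where 1228 of 9519 probe sets were, and 0 at the adjusted one.

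On the level of Nr3c1, 3 of 9 tested immediate early genes were past an unadjusted limma p of 0.05, all negative, where 13.1% of all tested probe sets were. Fosb had -0.19 ± 0.047, Egr2 -0.50 ± 0.19 and Egr4 -0.090 ± 0.039 log2 units per SD of Nr3c1 (SE, n = 9), and the lowest limma adjusted p was 0.172. Over the 7 rats the r of these 3 with Nr3c1 was -0.758, -0.350 and -0.335. Of the 9 immediate early genes 1 was past the unadjusted threshold over the 7 rats, with a negative slope, where 389 of 9519 probe sets were. On the level of Ddit4, 1 of 3 tested red blood cell markers had a limma adjusted p under 0.05, where 4.43% of all tested probe sets did. It was Alas2, an enzyme of haem synthesis in red blood cells, at -0.22 ± 0.051 (limma adjusted p = 0.0492), with r = -0.842 over 9 rats and -0.510 over 7. Hbb had -0.55 (limma adjusted p = 0.0680), and Slc4a1 was not past an unadjusted limma p of 0.05. Without rat 8, or over the 7 rats, 0 of the 3 were past either threshold.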
